A study of Mus musculus with 6 samples.

Results

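Klf2, Tbx3 and Sall4 are pluripotency genes that had Tex10 at a promoter in PGCLCs, the primordial germ cell-like cells of the mouse, and their intervals of Tex10 and of the promoter mark H3K4me3 are described here one by one. These 3 genes, of 21853 protein-coding genes, were chosen by their HA-Tex10 intervals within 1 kb of a transcription start site (TSS), so the presence of such an interval is a description of the choice. PGCLCs are grown in culture as a model of the cells that found the germ line in the embryo. The cells were at day 2, of strain 129Sv/J and untreated, and all carried Tex10 with an HA tag at its C-terminus. Chromatin immunoprecipitation with sequencing was done on 2 samples with an antibody against HA, 2 with an antibody against H3K4me3, and 2 samples of input DNA had no antibody. The labels do not say whether the tagged line was 1 clone or whether replicates were separate cultures. The intervals used come as 1 list for HA-Tex10 and 1 for H3K4me3 (a further HA-Tex10 list is a subset of the first), with a start and an end but no height, fold or p-value, so no value below has a replicate error, no test compares samples, and the depth is unknown. Input intervals were not analysed here.

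Klf2 encodes a zinc-finger transcription factor of the Krüppel-like family that, with Klf4 and Klf5, supports naive pluripotency in mouse embryonic stem cells. Tbx3 encodes a T-box transcription factor that supports self-renewal of these cells and later acts in limb and heart development. Sall4 encodes a zinc-finger factor of the spalt-like family that is needed in the early embryo, in embryonic stem cells and in germ cells. H3K4me3 is found at the promoters of genes that are active or held ready for activity, and broad stretches of it are common at genes that define a cell type. Tex10 is a nuclear protein known from a complex that acts in ribosome maturation, and it has been described as a partner of Sox2 at enhancers of embryonic stem cells.

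Sequences under HA-Tex10 intervals of the members are shown first, because the members were chosen by such stretches of DNA. They are read from the C57BL/6J reference (GRCm38.p6, mm10 in the submitters' processing notes), not from the 129Sv/J cells, run 5′ to 3′ on the strand of the gene, and leave out untranslated exon. Capitals mark matches, on either strand, to 1 of 12 short motifs, of which those found were the GC box bound by KLF and SP factors (GGGCGG), the CCAAT box bound by NFY (CCAAT), a SOX motif (ACAAAG) and the TATA box (TATAAA).
Klf2 upstream interval, chr8:72316219-72316518, plus strand: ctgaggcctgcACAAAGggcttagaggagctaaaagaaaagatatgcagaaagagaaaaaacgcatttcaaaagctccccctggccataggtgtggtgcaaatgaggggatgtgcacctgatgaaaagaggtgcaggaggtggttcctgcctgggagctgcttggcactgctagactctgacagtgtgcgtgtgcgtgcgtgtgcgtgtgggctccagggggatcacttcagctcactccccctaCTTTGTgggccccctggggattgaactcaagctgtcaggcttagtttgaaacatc
Klf2 promoter interval from the start codon on, chr8:72319078-72319216, plus strand: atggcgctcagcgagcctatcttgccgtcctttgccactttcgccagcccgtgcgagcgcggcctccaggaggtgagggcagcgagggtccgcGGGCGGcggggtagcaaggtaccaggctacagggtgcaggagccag
Klf2 gene body interval, first 300 bases, chr8:72320481-72320780, plus strand: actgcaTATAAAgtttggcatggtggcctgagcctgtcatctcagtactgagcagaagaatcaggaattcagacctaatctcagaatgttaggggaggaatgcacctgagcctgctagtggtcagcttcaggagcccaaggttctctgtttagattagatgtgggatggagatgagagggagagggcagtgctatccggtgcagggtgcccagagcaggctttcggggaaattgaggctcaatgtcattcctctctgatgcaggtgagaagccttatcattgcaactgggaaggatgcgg
Tbx3 promoter interval, chr5:119670335-119670469, plus strand: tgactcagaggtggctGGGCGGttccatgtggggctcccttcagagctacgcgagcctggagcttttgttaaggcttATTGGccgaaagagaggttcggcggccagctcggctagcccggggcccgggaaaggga
Sall4 narrow intronic interval, chr2:168765637-168765700, minus strand: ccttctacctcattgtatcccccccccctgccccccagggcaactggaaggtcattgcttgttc

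A GC box lay in the promoter intervals of Klf2 and Tbx3, with 1 match each. Windows of the same length at the centres of all 1773 promoter HA-Tex10 intervals held it in 38.9% (161 bp, as at Klf2) and 33.6% (135 bp, as at Tbx3) of cases. The Tbx3 interval also held a CCAAT box, as 16.2% of such windows did. The upstream Klf2 interval held 2 SOX motifs, where 13.0% of 300 bp windows at other promoter intervals held any. The gene body interval of Klf2 held a TATA box letter match, as 4.57% of 316 bp windows did. These last comparisons set intervals outside the 1 kb promoter window beside windows inside it. The octamer motif (ATGCAAAT), the E-box (CACGTG), the T-box motif (AGGTGTGA), the KLF box (GGGTGTGG), the CREB motif (TGACGTCA), the ETS motif (CCGGAAG), the TCF or LEF motif (CTTTGA) and the ESRRB motif (TCAAGGTCA) were found in none of the 6 intervals for which motifs are reported. No matches overlapped each other. These are matches of letters, not shown to be bound sites.

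Of the members, Klf2 was matched in the RefSeq promoter table (GRCm38.p6), which gives 250 bases before and 50 after a start site. The stretch that ends at the GENCODE start is shown because it lies just upstream of the Klf2 promoter interval, inside H3K4me3, and holds both GC boxes of that window; a GC box was present in 35.9% of the 27025 promoters of the table.
Klf2 promoter, chr8:72318812-72319032, plus strand: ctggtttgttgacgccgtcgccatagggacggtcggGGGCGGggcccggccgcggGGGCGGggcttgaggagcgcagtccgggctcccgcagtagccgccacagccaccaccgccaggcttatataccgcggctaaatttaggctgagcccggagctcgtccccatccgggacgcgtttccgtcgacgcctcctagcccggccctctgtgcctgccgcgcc

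Klf2 (ENSMUSG00000055148.7) spans 72319033 to 72321656 on the plus strand of chromosome 8, with 1 transcript and 1 TSS. It had 3 HA-Tex10 intervals within the gene and 20 kb on each side. The promoter interval, from 72319056 to 72319216, was 161 bp wide and began 23 bp downstream of the TSS. It covered 22 bp of 5′ untranslated exon, 72 bp of coding sequence and 67 bp of the intron that follows. RefSeq places the Klf2 start at 72319062, and the interval holds this position. A wider interval of 316 bp, from 72320481 to 72320796, had its centre 1605 bp downstream of the TSS and crossed from intron (263 bp) into the coding part of the last exon (53 bp). The interval upstream, from 72316219 to 72316518, was 300 bp wide, lay outside any annotated gene and was centred at -2665 bp from the TSS (negative values are upstream). The promoter interval, on which Klf2 was chosen, was thus the narrowest of the 3.

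The H3K4me3 of Klf2 covered the gene almost from end to end. One interval of 2933 bp, from 72318675 to 72321607, began before the TSS and took in 2575 bp, 98.1%, of the 2624 bp gene. It held both HA-Tex10 intervals of the gene body whole, with the promoter interval 381 bp from its upstream edge. The upstream HA-Tex10 interval met a separate H3K4me3 interval of 335 bp, from 72316278 to 72316612, over 241 bp (80.3% of its width). This pair lies away from the promoter, and the nearest TSS of any annotated gene was that of Klf2, 2515 bp off. The last H3K4me3 interval, of 268 bp, followed 296 bp after the large one and met no HA-Tex10.

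Tbx3 (ENSMUSG00000018604.18) spans 119670669 to 119684724 on the plus strand of chromosome 5 and has 6 transcripts with 5 TSS, of which 3 start coding transcripts. It had 1 HA-Tex10 interval in the gene and its flanks, from 119670335 to 119670469, 135 bp wide. This interval lay wholly upstream of the gene, at 200, 393 and 549 bp from the coding TSS at 119670669, 119670862 and 119671018. It was also within an intron of Tbx3os1, an antisense RNA gene whose nearest TSS is 896 bp away, so the same interval counts for both genes. The other TSS of Tbx3, those of 2 transcripts annotated without coding sequence inside the gene, were 4976 and 9780 bp away.

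H3K4me3 at the Tbx3 promoter formed an interval of 3488 bp, from 119669854 to 119673341, which contained all 3 coding TSS and the whole HA-Tex10 interval, 481 bp from its upstream edge. The TSS of Tbx3os1 lay inside it as well. A second group of H3K4me3 intervals lay over the last part of the gene, with widths of 158, 789 and 452 bp, and covered coding sequence over 62, 429 and 425 bp. The first of them began 50 bp from the TSS of a non-coding transcript at 119680249. A further interval of 308 bp lay 13364 bp upstream of the Tbx3 TSS, within Gm16064 and Tbx3os1. None of these 4 met an HA-Tex10 interval. In all, H3K4me3 covered 4072 bp, 29.0%, of the Tbx3 gene, and HA-Tex10 covered 0 bp of it.

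Sall4 (ENSMUSG00000027547.17) spans 168748332 to 168767943 on the minus strand of chromosome 2 and has 7 transcripts with 6 TSS, of which 4 start coding transcripts. Each of its 3 HA-Tex10 intervals was less than 1 kb from a coding TSS, but not all from the same one. The widest, from 168767018 to 168767260 (243 bp), contained the coding TSS at 168767201 and 168767029 and that of a non-coding transcript at 168767117. It covered 172 bp of untranslated exon and 12 bp of coding sequence, and the rest, 59 bp, lay before the first coding TSS. The other HA-Tex10 intervals were narrow, at 47 bp (168765358 to 168765404) and 64 bp (168765637 to 168765700), and lay in intron. They were 112 and 391 bp upstream of the TSS at 168765246 of a coding transcript whose annotation is incomplete at its end. The 47 and 64 bp intervals were wider than 5.64 and 8.52% of promoter HA-Tex10 intervals, so they are near the narrow end of what the authors listed. No HA-Tex10 interval was near the internal coding TSS at 168755943, the nearest being 9415 bp away.

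Sall4 had the widest promoter H3K4me3 of the members. The interval of 4005 bp, from 168763437 to 168767441, held all 3 HA-Tex10 intervals and every coding TSS but the internal one. It is followed within the gene by intervals of 1359, 459 and 17 bp, at gaps of 154, 272 and 415 bp, and preceded by one of 224 bp at a gap of 271 bp. The mark therefore ran with short breaks from before the first coding TSS into the long intron, and covered 6064 bp, 30.9%, of the gene. None of the 4 smaller intervals met HA-Tex10. The widest HA-Tex10 interval lay within Gm14261, a non-coding gene on the opposite strand, and met an exon of it. The TSS of Gm14261 was 443 bp from the nearest of the 3 intervals.

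**Figure D1:**
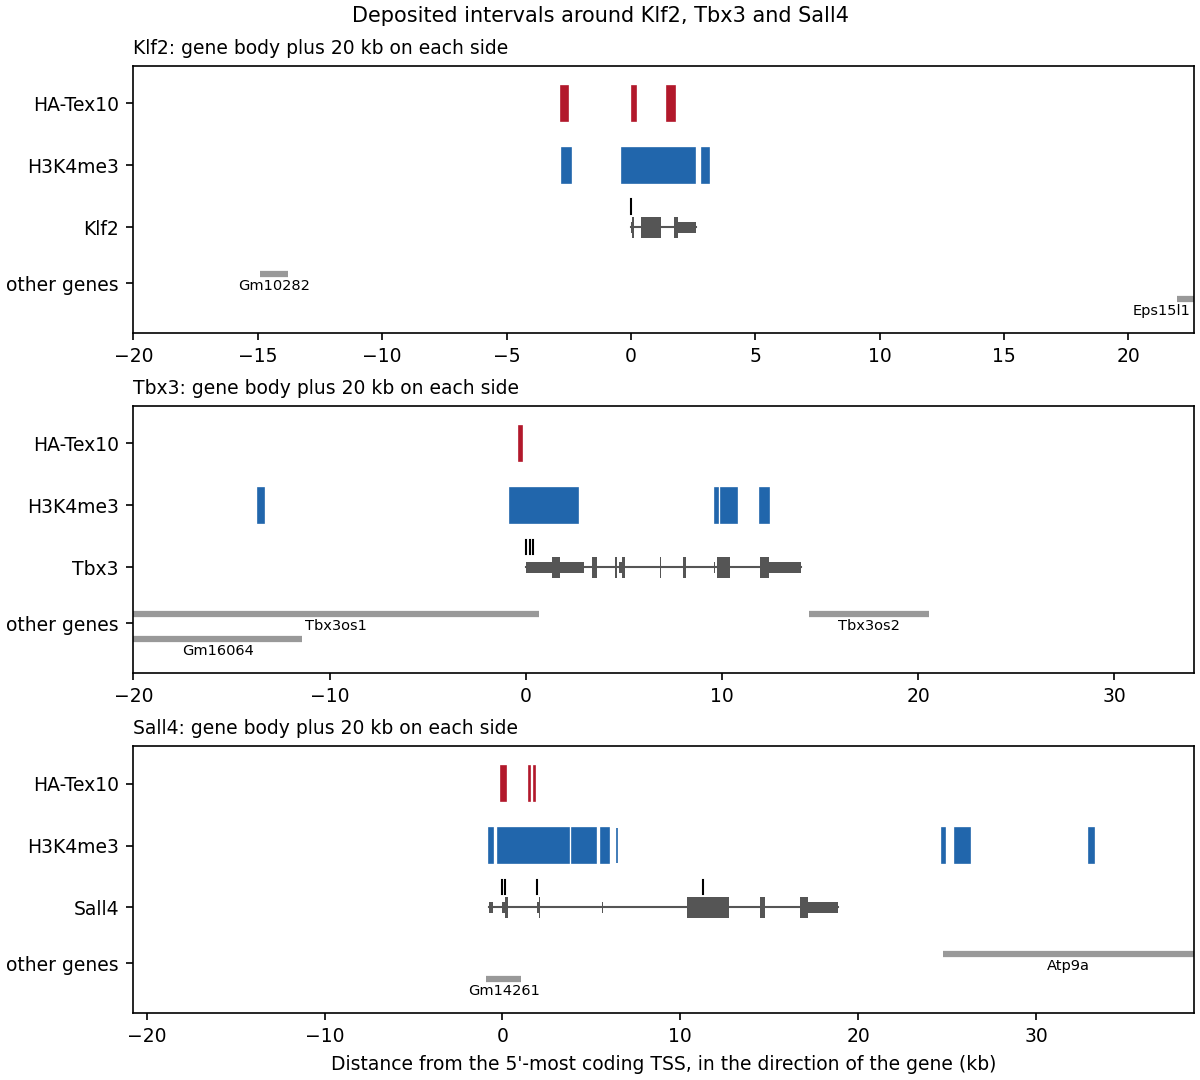
Deposited intervals over each gene and 20 kb on each side, with distance from the 5′-most coding TSS in kb on the horizontal axis, HA-Tex10 in red, H3K4me3 in blue, exons in grey (coding parts taller), coding TSS as black ticks and other annotated genes as grey bars. A thin outline makes the narrowest intervals look wider than they are. The 7 HA-Tex10 intervals, 3 at Klf2, 1 at Tbx3 and 3 at Sall4, all overlap H3K4me3, the upstream one of Klf2 over 80.3% of its width. Of all HA-Tex10 intervals, at promoters or elsewhere, 69.3% overlap H3K4me3. Of the 1893 coding genes with promoter HA-Tex10, 1856 also have promoter H3K4me3, so having both at a promoter is not particular to the members.

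Every member thus had 1 HA-Tex10 interval close to the annotated start of its main transcripts, with the interval centre at 103 bp (Klf2), -267 bp (Tbx3) and 62 bp (Sall4) from the TSS. Over all 1773 promoter HA-Tex10 intervals the median centre was at -14 bp, with quartiles at -163 and 112 bp, and 70.2% lay within 250 bp of a coding TSS. Klf2 and Sall4 were inside these quartiles and Tbx3 was outside them, further upstream. The widths of 161, 135 and 243 bp compare with a median of 233 bp (quartiles 157 and 332 bp), and were above those of 25.4, 20.6 and 53.0% of promoter intervals. Within Klf2, the promoter interval had 68.3% GC and an observed over expected CpG of 0.693, and the intervals away from the start were poorer in CpG, at 0.238 upstream and 0.300 in the gene body.

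**Figure D2:**
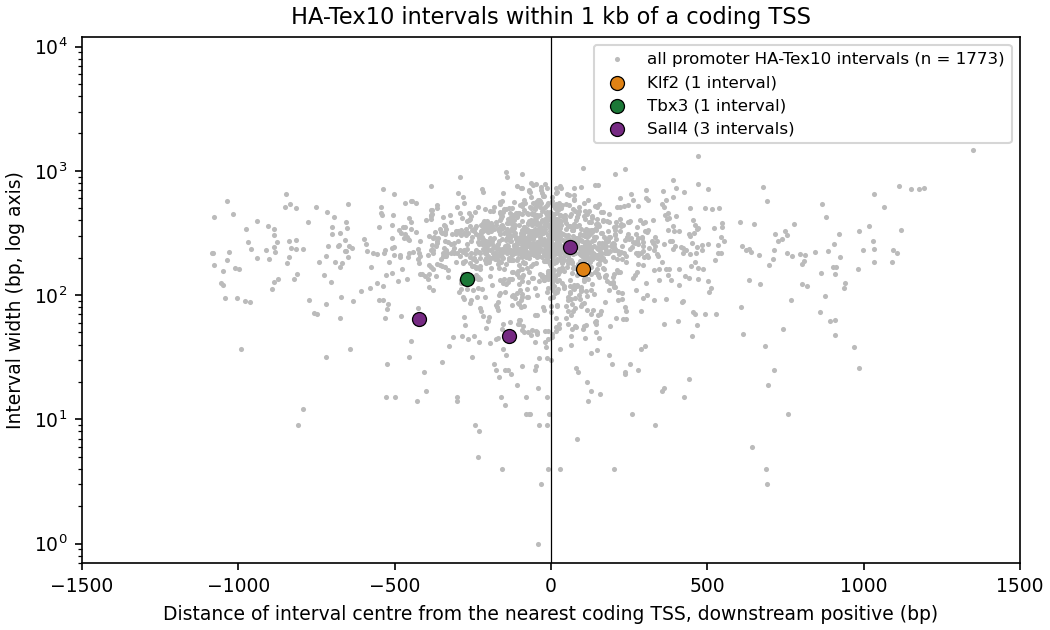
Distance from the centre of each of the 1773 promoter HA-Tex10 intervals to the nearest coding TSS in bp (horizontal axis; negative is upstream) against interval width in bp on a log axis, with the 5 promoter intervals of the members in colour. The member intervals are within the cloud, and the 47 and 64 bp intervals of Sall4 are among the narrow ones.

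The HA-Tex10 list differed between intervals in how much of their sequence is repeated in the genome. In each of the 7 intervals of the members, 0% of the 32-base words occurred more than once in the reference genome. The same 0% was found in 51.7% of all HA-Tex10 intervals and in 83.8% of promoter intervals, so it was common at promoters. Over the whole HA-Tex10 list 39.7% of intervals had repeated words for more than 50% of their length, and over promoter intervals 7.39% did. The 17 bp H3K4me3 interval in Sall4 was the exception among the intervals of the members, with 78.3% of the words around it repeated. By the soft-masking of the reference, which also marks diverged and simple repeats, the 47 and 64 bp intervals of Sall4 were repeat over 70.2 and 39.1% of their width and the upstream Klf2 interval over 26.0%. The part of repeats in these intervals was not tested.

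H3K4me3 within 1 kb of a TSS was found at 13306 of 21853 coding genes (60.9%), and all 3 members were among them. Of the marked genes, 1856 (13.9%) had HA-Tex10 in the same window. The promoter H3K4me3 of Klf2, Tbx3 and Sall4 was wider than that of 93.0, 96.7 and 98.1% of marked genes, which had a median of 1342 bp (quartiles 861 and 1967 bp). As listed, Sall4 had the widest interval, then Tbx3 and Klf2, and no spread is known for any of these widths. The order of Tbx3 and Klf2 turned when neighbours within 1 kb were merged, at 3488 bp for Tbx3 and 3497 bp for Klf2, both wider than 92.8% of marked genes, with Sall4 at 7176 bp. Among the 1856 marked genes with HA-Tex10 the median was 1756 bp, against 1273 bp in the 11450 without, and the members were then above 86.5, 93.5 and 95.9% of genes. Of the 936 genes with promoter H3K4me3 at least as wide as that of Klf2, 251 (26.8%) had HA-Tex10 at the promoter, so most genes with such broad H3K4me3 were without it. Width was not used to choose the members, but pluripotency genes as a group had broad H3K4me3 with or without HA-Tex10, as given below.

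**Figure D3:**
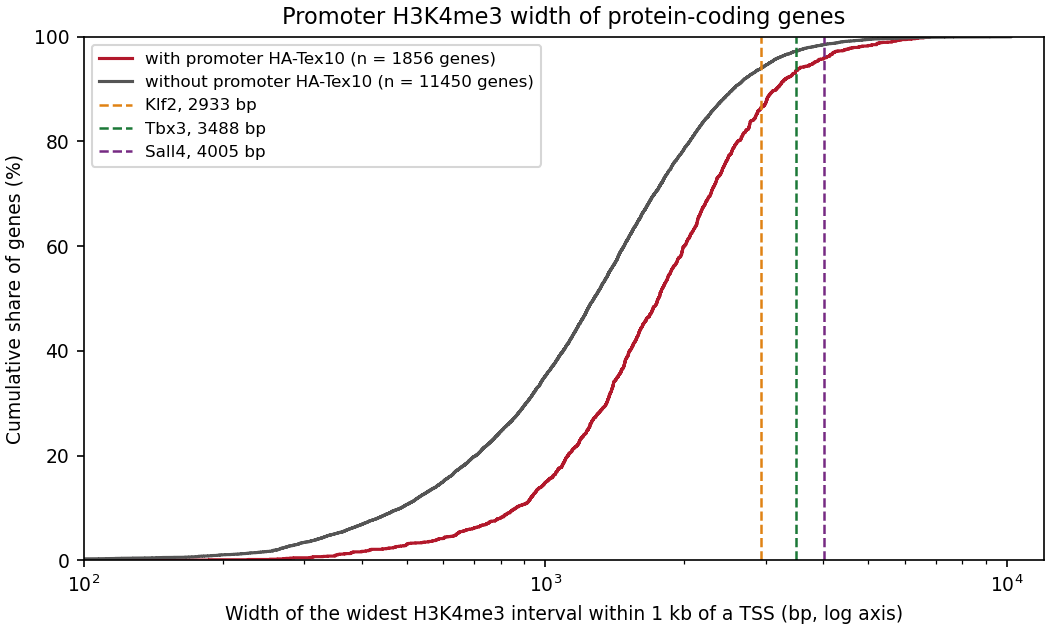
Cumulative share of genes in percent against the width of the widest promoter H3K4me3 interval in bp (log axis), for coding genes with and without promoter HA-Tex10, with the 3 members as dashed lines. Sall4 (4005 bp), Tbx3 (3488 bp) and Klf2 (2933 bp) lie in the upper part of both distributions.

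The members differed in how many HA-Tex10 intervals surrounded them. Within the gene body and 20 kb on each side Klf2 and Sall4 had 3 each and Tbx3 had 1, whereas 21.6% of coding genes had any and 2.04% had 3 or more. Sall4 was among 23 coding genes with at least 3 intervals in the 1 kb window, which is 0.105% of all coding genes. Of all coding genes 1893 had any interval there. The members were chosen by intervals in this window, so nothing is read from these shares. The count of 3 at Sall4 rests on the 2 narrow Sall4 intervals, as 1 interval remained when those under 100 bp were left out. H3K4me3 intervals in the same windows numbered 3 at Klf2, 5 at Tbx3 and 8 at Sall4, of which 3 of the Sall4 set (257, 851 and 182 bp) lay at the start of or inside the neighbouring Atp9a.

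The surroundings separated Klf2 from the others. Klf2 lies on chromosome 8, which held 725 HA-Tex10 intervals, 17.1% of those on assembled chromosomes, but 6.65% of the H3K4me3 intervals. On this chromosome 41.2% of genes with promoter H3K4me3 had HA-Tex10, against 12.7% on chromosome 5 of Tbx3 and 11.5% on chromosome 2 of Sall4. At least 3 HA-Tex10 intervals in the body and flanks were found at 154 of 1037 coding genes on chromosome 8 (14.9%), at 13 of 1257 on chromosome 5 (1.03%) and at 11 of 1837 on chromosome 2 (0.599%). The members had at least 1 interval by the choice itself. Of genes with promoter HA-Tex10, at least 3 in the body and flanks were found at 259 of 1893 (13.7%) in all, 95 of 311 (30.5%) on chromosome 8, 5 of 111 on chromosome 5 and 6 of 128 (4.69%) on chromosome 2. The part of this chromosome-wide difference in the Klf2 intervals was not tested.

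Within 500 kb of its TSS on each side Klf2 had 16 HA-Tex10 intervals, Tbx3 had 1 and Sall4 had 3, and the median coding gene had 2. The median coding gene of the same chromosome had 8 for Klf2, 3 for Tbx3 and 2 for Sall4. The counts of the members include their own intervals, so Tbx3 and Sall4 had no others. Of the 27 other coding genes in the Klf2 window, 17 had promoter H3K4me3 and 15 had promoter HA-Tex10, among them Ap1m1, Eps15l1, Calr3, Rab8a and the Mediator subunit gene Med26. The 13 HA-Tex10 intervals there that did not belong to Klf2 all overlapped H3K4me3 and all lay at a TSS, with widths of 126 to 891 bp. The 2 other coding genes near Tbx3 and the 4 near Sall4 all had promoter H3K4me3, and 0 of them had promoter HA-Tex10. Next to Tbx3 these included the T-box gene Tbx5, 147944 bp away, and next to Sall4 they included Atp9a, 5923 bp away, and Zfp64, 125388 bp away.

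The nearest HA-Tex10 interval beyond the flanks of Tbx3 was 1159184 bp upstream and 927721 bp downstream, the latter at Rita1. For Sall4 these distances were 1499450 bp upstream and 540845 bp downstream, at Adnp. At Klf2 they were 78.7 kb upstream, at Ap1m1, and 99.7 kb downstream, at Eps15l1. Of the genes that reach into the 20 kb flanks, Eps15l1 had HA-Tex10 at its TSS, on its far side from Klf2, and Gm10282, Gm16064, Tbx3os2 and Atp9a had none within 1 kb of a TSS. The HA-Tex10 intervals of Tbx3 and Sall4 were therefore isolated within these 500 kb windows, and those of Klf2 were not.

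**Figure D4:**
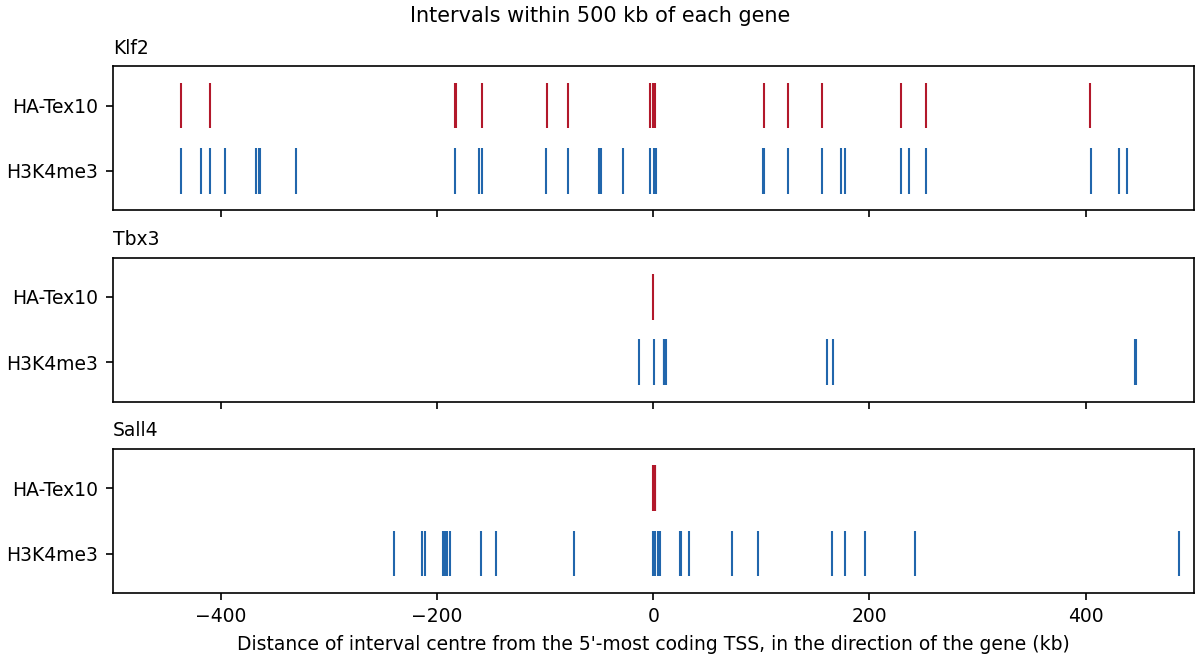
HA-Tex10 (red) and H3K4me3 (blue) intervals within 500 kb on each side of each member, with distance from the TSS in kb on the horizontal axis. Klf2 has 16 HA-Tex10 intervals in the window, Tbx3 has 1 and Sall4 has 3.

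A list of 30 pluripotency genes, to which the members belong, had H3K4me3 within 1 kb of a TSS at 29 (all but Tcl1), against 60.9% of all coding genes. HA-Tex10 was there at 3, which is 10% of the list, beside 8.66% of all coding genes and 13.9% of those with promoter H3K4me3. The members were chosen as those 3. Taking the closest interval of each member, that of Tbx3 came nearest to the limit, well inside it at 200 bp from the TSS. The 64 bp interval of Sall4 lay further from its nearest coding TSS, at 391 bp. Closest on the outside was Tdgf1, which encodes a Nodal co-receptor, with a 472 bp interval at 1122 bp. Nanog and Pou5f1, core pluripotency factors, had intervals of 307 and 206 bp at 4552 and 4956 bp, and the TGF-beta family gene Gdf3 had one of 351 bp at 5339 bp. Zfp42 (14191 bp) and Stat3 (19608 bp) had theirs further out, so that 9 of the 30 genes (30.0%) had HA-Tex10 in the body and 20 kb flanks, beside 21.6% of all coding genes. Sox2, by contrast, had its nearest HA-Tex10 interval 74061 bp away, and for Klf4, Klf5 and Esrrb it was 334505, 198676 and 256522 bp away.

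The median promoter H3K4me3 of the list was 2986 bp, from 502 bp at Stat3 to 7855 bp at Otx2. Klf2, at 2933 bp, was thus just below this median, and Tbx3 (3488 bp) and Sall4 (4005 bp) were above it. All 3 were well inside the range of the list. H3K4me3 at least as wide as at Klf2 was found at 16 genes, of which 13 had no promoter HA-Tex10, including Pou5f1 (6136 bp), Sox2 (6675 bp) and Tdgf1 (5399 bp).

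**Figure D5:**
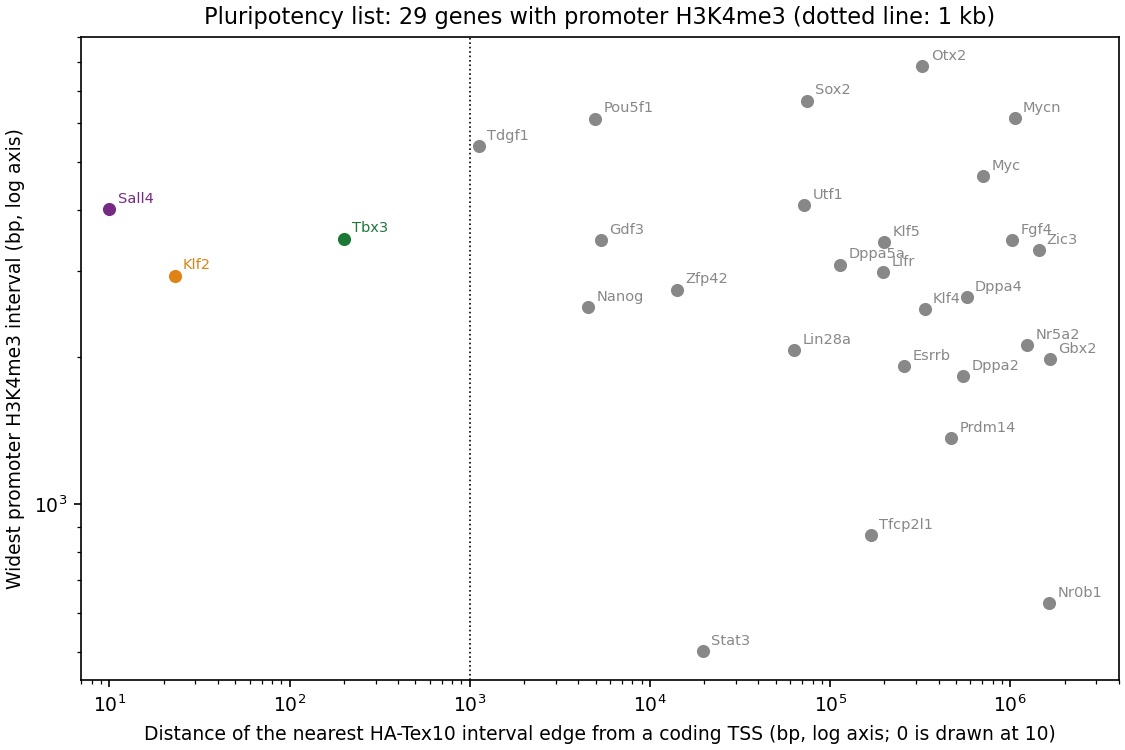
The 29 pluripotency genes with promoter H3K4me3 by distance from the nearest HA-Tex10 interval to a coding TSS and by width of the widest promoter H3K4me3 interval in bp (both axes log, with a distance of 0 drawn at 10). The 3 members lie within the 1 kb limit, Tdgf1, Nanog, Pou5f1 and Gdf3 lie between 1122 and 5339 bp, and H3K4me3 is as wide in many genes outside the limit as inside it.

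The close relatives of the members were counted in the same windows, in which 60.9% of all coding genes had H3K4me3 and 8.66% had HA-Tex10. In the Krüppel-like family 16 of 17 genes had promoter H3K4me3 and 3 had HA-Tex10: Klf2, Klf10, whose TSS lay inside a 575 bp interval, and the erythroid factor gene Klf1, at 826 bp on chromosome 8. In the T-box family 12 of 17 (70.6%) had promoter H3K4me3 and 3 had HA-Tex10, namely Tbx3, Mga, a partner of MAX, and Tbx6, a gene of paraxial mesoderm whose interval at 918 bp came without H3K4me3. Of the T-box genes, Tbx3 alone had promoter H3K4me3 as wide as that of Klf2. All 4 Sall genes had promoter H3K4me3, and Sall4 and Sall2 (at 836 bp) had HA-Tex10. Sall1, also on chromosome 8, was just outside the limit at 1199 bp and had 8057 bp of H3K4me3.

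Genes most like each member were found by distance over 4 standardised values: the centre offset of the HA-Tex10 interval, its width, the width of promoter H3K4me3, and the number of HA-Tex10 intervals in the body and flanks. Among the 1856 genes with both marks, those nearest to Klf2 were Cct3, a chaperonin subunit (distance 0.597), Dnajb1, a heat-shock co-chaperone (0.612), and Wdr76 (0.666), where the median gene was at 2.37. Nearest to Tbx3 were Spred2, an inhibitor of Ras signalling (0.102), Haus1, a subunit of augmin (0.168), and Ino80e, a subunit of a chromatin remodeller (0.318). Spred2 had an interval of 137 bp at -284 bp in 3336 bp of H3K4me3, close to the 135 bp at -267 bp in 3488 bp of Tbx3. Nearest to Sall4 were Ankrd10 (0.432), the glycolytic gene Gapdh (0.476) and Cct3 (0.54). None of these is on the pluripotency list, but this was fixed by the choice. The members are the only 3 genes of that list with promoter HA-Tex10, so no other gene of it could be found here.

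The labelled cell type could be read from H3K4me3 only, which does not measure RNA. Of 6 germ cell genes, Prdm1, Tfap2c, Prdm14 and Kit had promoter H3K4me3 (812 to 2101 bp), while the nearest H3K4me3 was 1029 bp from Dppa3 and 3273 bp from Nanos3. The pluripotency markers had it at 3 of 3 genes (2531 to 6675 bp), mesoderm markers at 4 of 4 (315 to 2421 bp) and markers of other cell types at 5 of 7, with Col1a1 and Col1a2 lacking it. The shares of the germ cell markers (66.7%) and of the markers of other cell types (71.4%) were near the 60.9% of all coding genes. Their part in the results above was not tested.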

How the data were processed

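ChIP-seq intervals of HA-Tex10 and H3K4me3 in day 2 PGCLCs were analysed. The submitters' processing notes name Bowtie2 2.3.4.3, SAMtools 1.9, MACS2 2.1.2, HOMER and mm10, without the role of each. How replicates were combined, the peak threshold and the use of input are not given in the sources used here. The deposited lists give coordinates in bp with no score (4331 HA-Tex10 and 29072 H3K4me3 intervals, median widths 232 and 711 bp), and 69.3% of HA-Tex10 intervals met H3K4me3. A further deposited list of 2990 distinct HA-Tex10 intervals holds those that meet H3K4me3, so it is not independent.

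Intervals were assigned to GENCODE M21 coding TSS on 21 assembled chromosomes when an edge lay within 1 kb, and to gene bodies with 20 kb flanks, with at least 1 bp counting as overlap (Python 3.11.15, pandas 2.3.3, numpy 2.4.6). No interval passed a chromosome end. A percentile is the share of genes or intervals with a lower value. Genes named are the members, their annotated neighbours, genes of the gene lists and the 3 genes most like each member. The interval counting was tested on simulated data. The members and lists were chosen with earlier results of these data known. Alternatives were other TSS windows and flanks, merging, width limits, interval edge in place of centre, the 5′-most TSS alone and leaving out chromosome 8. The sequence of 1 Sall4 interval is not reported here.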

Additional observations from a re-analysis of the deposited data

How the results depend on the processing

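Counts were scored as close when within a set fold of the main value, whereas widths and distances were scored as moved on any change. By these unlike rules, of 44 values under alternatives, 34 were scored as close or the same, 10 as moved and 0 changed sign. These include the count of members with promoter HA-Tex10, on which the members were chosen, so nothing is read from where it stayed. Leaving out chromosome 8 removed Klf2, yet the change of that count from 3 to 2 was scored as close. The 5 kb window raised the pluripotency genes with HA-Tex10 from 3 to 6 by adding Pou5f1, Nanog and Tdgf1, and 10.6% of all coding genes then passed. Keeping only intervals wider than the median left 1 member and 1 pluripotency gene, Sall4, with 4.67% of all genes. Without chromosome 8, an alternative chosen after seeing the data, 4 of the 7 HA-Tex10 intervals remained. Merging neighbours within 1 kb gave 9 H3K4me3 intervals in place of 16, and promoter widths of 3497 bp at Klf2 and 7176 bp at Sall4, while Tbx3 kept 3488 bp, so that Klf2 and Tbx3 changed places in the order of widths. By the nearest edge the distances to the TSS were 23 bp (Klf2), -200 bp (Tbx3) and 0 bp (Sall4). Without intervals under 100 bp, also chosen after seeing the data, 5 HA-Tex10 intervals remained, with 1 at Sall4. No paired analysis was possible because the intervals of both replicates come in 1 list, and replicates could not be left out for the same reason. With no scores or depth, neither the strength of an interval nor the certainty of a missing one is known.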

Other observations

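At least 3 HA-Tex10 intervals in the gene body and 20 kb flanks were also found at 3 relatives of the members without being on the pluripotency list: Klf1 with 9, and Klf9 and Tbx10 with 3 each. The germ cell gene Nanos3 had 3 such intervals as well. Of the 38 family genes counted, members included, 5 had at least 3, beside 2.04% of all coding genes. Klf1 and Nanos3 lie on chromosome 8, where 14.9% of coding genes had at least 3.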
